A study of Homo sapiens with 12 samples.

Results

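The genes described here are the interferon response and antigen presentation genes on a cDNA array of drug-treated H460 cells. They were chosen by name from the platform annotation: every gene whose symbol starts with IFI, IFN, IRF, STAT, ISG, OAS, MX, GBP, HLA- or TAP (with a digit after IRF, STAT, MX and TAP), and B2M. The rule found 47 genes, read by 53 probes, among 5499 named genes and 8170 probes. The rule itself uses names and no measured value, but it was chosen with earlier results of these data known. One further probe carries a pair of HLA class II names and is not named here.

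H460 is an established human lung cancer cell line. Cells were exposed for 24 h to 1 of 5 drugs, and RNA of treated and of untreated H460 cells was hybridised together on each of 12 two-channel arrays. The drugs were 5-fluorouracil (5-FU, 1 µM), cytarabine (0.2 µM) and cisplatin (5 µM), which act on DNA synthesis or on DNA itself, paclitaxel (5 nM), which stabilises microtubules, and cytochalasin D (0.2 µM), which blocks actin polymerisation. 5-FU had 4 arrays, made of 2 replicates with the treated RNA once in channel 1 and once in channel 2. Each other drug had 2 arrays, all with treated RNA in channel 1. All values are ratios of treated over untreated RNA within an array, taken as log2 and centred on the array's median, so 0 means the array's typical gene. No label states if replicates were grown as separate cultures, or if drugs shared 1 preparation of untreated RNA, so the p-values measure the spread between these arrays only.

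Interferons are secreted proteins that bind receptors on the cell surface. The receptors activate kinases of the JAK family, which phosphorylate STAT proteins. Type I interferons (alpha and beta) act mainly through a complex of STAT proteins and IRF9 that binds the interferon-stimulated response element (ISRE). Type II interferon (gamma) acts mainly through STAT pairs that bind the gamma-activated site (GAS). The genes so induced encode antiviral proteins and the machinery that shows peptides on the cell surface: class I molecules made of an HLA heavy chain and B2M and filled with peptides by the TAP1 and TAP2 transporter, and class II molecules, which epithelial cells make mainly after interferon gamma. DNA-damaging drugs are known to start this response in some tumour cells. STAT2, IRF3, ISG15, MX1 and OAS1 were not analysed here.

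The upstream promoter sequences of 4 members on which the results turn are shown, with the ISRE and GAS matches in capitals. They are the 250 bases before the RefSeq start of each gene, on the strand of the gene, in build GRCh38.p14. TAP1 (chr6:32853705-32853954, minus strand) holds a pair of overlapping ISREs, which begin at -134 and -128, counted from the start as 0. IFIT3 (chr10:89327747-89327996, plus strand) holds an ISRE at -156 and another at -122. IFI35 (chr17:43006534-43006783, plus strand) holds a GAS at -22, and IRF9 (chr14:24161015-24161264, plus strand) holds one at -63.
TAP1: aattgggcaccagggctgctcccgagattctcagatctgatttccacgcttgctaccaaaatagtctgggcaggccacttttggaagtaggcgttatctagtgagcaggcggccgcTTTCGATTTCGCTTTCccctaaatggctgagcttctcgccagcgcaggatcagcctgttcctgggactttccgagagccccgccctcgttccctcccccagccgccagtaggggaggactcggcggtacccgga
IFIT3: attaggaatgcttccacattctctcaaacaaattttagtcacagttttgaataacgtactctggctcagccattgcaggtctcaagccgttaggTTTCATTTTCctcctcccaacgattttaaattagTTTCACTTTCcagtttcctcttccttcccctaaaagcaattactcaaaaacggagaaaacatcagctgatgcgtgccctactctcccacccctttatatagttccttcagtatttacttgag
IFI35: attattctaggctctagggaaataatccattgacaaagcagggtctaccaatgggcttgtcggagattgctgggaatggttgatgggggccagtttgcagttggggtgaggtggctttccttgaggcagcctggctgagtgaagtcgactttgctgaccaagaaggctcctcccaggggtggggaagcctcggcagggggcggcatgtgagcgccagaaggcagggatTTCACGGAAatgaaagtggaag
IRF9: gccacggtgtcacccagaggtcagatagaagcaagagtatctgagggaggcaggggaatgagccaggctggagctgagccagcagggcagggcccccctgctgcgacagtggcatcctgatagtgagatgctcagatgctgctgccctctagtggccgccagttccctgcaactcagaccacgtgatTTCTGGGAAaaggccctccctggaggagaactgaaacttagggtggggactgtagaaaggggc
The search used GAAANNGAAA for the ISRE, TTCNNNGAA for the GAS and the consensus of NF-kB, on both strands of windows from 250 bases before to 50 after the start. Promoters of 39 members were found in the RefSeq table. An ISRE was present in 12 of them (30.77%), against 3.65% of all 27303 promoters. A GAS was present in 6 (15.38%), against 7.88%, and an NF-kB match in 11 (28.21%), against 10.83%. The NF-kB match of TAP1 that begins at -72 is left in lower case in the sequence shown. A match is a description of letters and not evidence of binding. A window without a match says only that these letters are not in it. ISREs were also present in IFI44L (-164 and -73), ISG20 (-69) and TAP2 (-58), whose sequences are not shown. IFI44L and ISG20 fell in the drug in which IFIT3 rose. IFI44L rose in cytarabine and ISG20 in cytochalasin D, and TAP2 did not rise in cisplatin, where TAP1 rose. Whether a motif goes with a direction was not tested.

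The members had no common direction in any of the 5 drugs. The median ratio of the members tested was -0.04 in 5-FU, 0.06 in cytarabine, 0.05 in cisplatin, -0.02 in paclitaxel and 0.01 in cytochalasin D. The medians over all features tested were 0.01, 0.04, 0.01, 0.02 and 0.02 in the same order. Of 31 members tested, 9 passed an adjusted p of 0.05 in at least 1 drug. The 9 were IFI16, IFI35, IFI44L, IFIT3, ISG20, IFNGR2, STAT3, TAP1 and HLA-DRB3. The share of all features that passed in at least 1 drug was not counted. In single drugs 9.26 to 25.2% of all features passed, so the count of 9 does not by itself set the members apart.

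These tests used limma on all 12 arrays with a term for the channel, which the 4 arrays of 5-FU measure, and Benjamini-Hochberg adjustment over all features. In 5-FU, 6 of 23 members tested passed, 2 higher and 4 lower, where 16.8% of all features passed, 5.04% higher and 11.8% lower. In cytarabine, 3 of 30 members passed, 2 higher and 1 lower, where 25.2% of all features passed, 13% higher and 12.2% lower. In cisplatin, 4 of 31 passed, 3 higher and 1 lower, with 20.4% for all features, 10.8% higher and 9.6% lower. In paclitaxel, 1 of 31 passed, which was higher, with 9.26% for all features, 3.67% higher and 5.59% lower. In cytochalasin D, 3 of 31 passed, 2 higher and 1 lower, with 13.4% for all features, 5.98% higher and 7.43% lower. The members' share was above that of all features in 5-FU and below it in the other 4 drugs. This order depended on the fit. Without the channel term the share was below that of all features in 5-FU and above it in cytarabine and cytochalasin D. Of the 6 in 5-FU, STAT3, IFI44L and HLA-DRB3 are means of probes that disagree. The shares rest on few members, and their difference was not tested.

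Where the channel term is left out, more genes can be tested, since values in both orientations are no longer needed, but an effect of the channel can then not be told apart from the drug in the 4 drugs of 1 orientation. The members that passed were then 5 of 35 in 5-FU (19.1% of all features), 11 of 41 in cytarabine (25.9%), 6 of 44 in cisplatin (15.8%), 3 of 43 in paclitaxel (9.58%) and 6 of 43 in cytochalasin D (11%). Over both fits, 19 members passed in at least 1 drug, 26 with a value passed in none, and IFI6 and HLA-DMB had no value on any array. The matching share of all features over the drugs and fits was not counted.

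**Figure D1:**
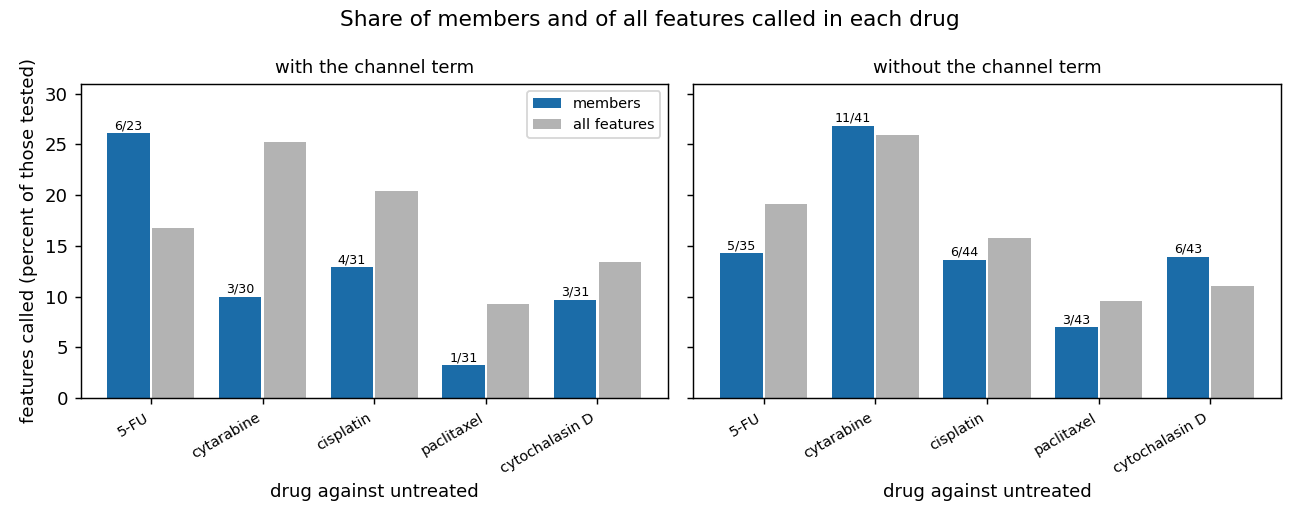
Percent of features tested that passed an adjusted p of 0.05 against untreated RNA (y axis), by drug (x axis), for the members (blue, with the count passed over the count tested) and for all features (grey), with the channel term (left) and without it (right). With the term the members' share is above that of all features in 5-FU alone; without it, it is above in cytarabine and cytochalasin D.

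Arrays differed in how many members they could read. The 5-FU arrays held values for 23 to 41 members and the other arrays for 41 to 45, and 22 members had a value on all 12. Missing values made up 21.53 to 46.67% of the probes on 5-FU arrays and 6.44 to 14.46% on the others. The direction of the ratios is likely rather than stated, because the labels do not name the numerator. It was set so that MDM2 and CDKN1A, targets of p53, are higher after 5-FU; the ratios of MDM2 were then 2.74 and 2.57 in cisplatin, where the direction was not set by them. Were the direction opposite, every sign below would turn. A ratio gives no level, so the labelled cell type could not be checked against its markers, and levels of different genes are not compared.

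**Figure D2:**
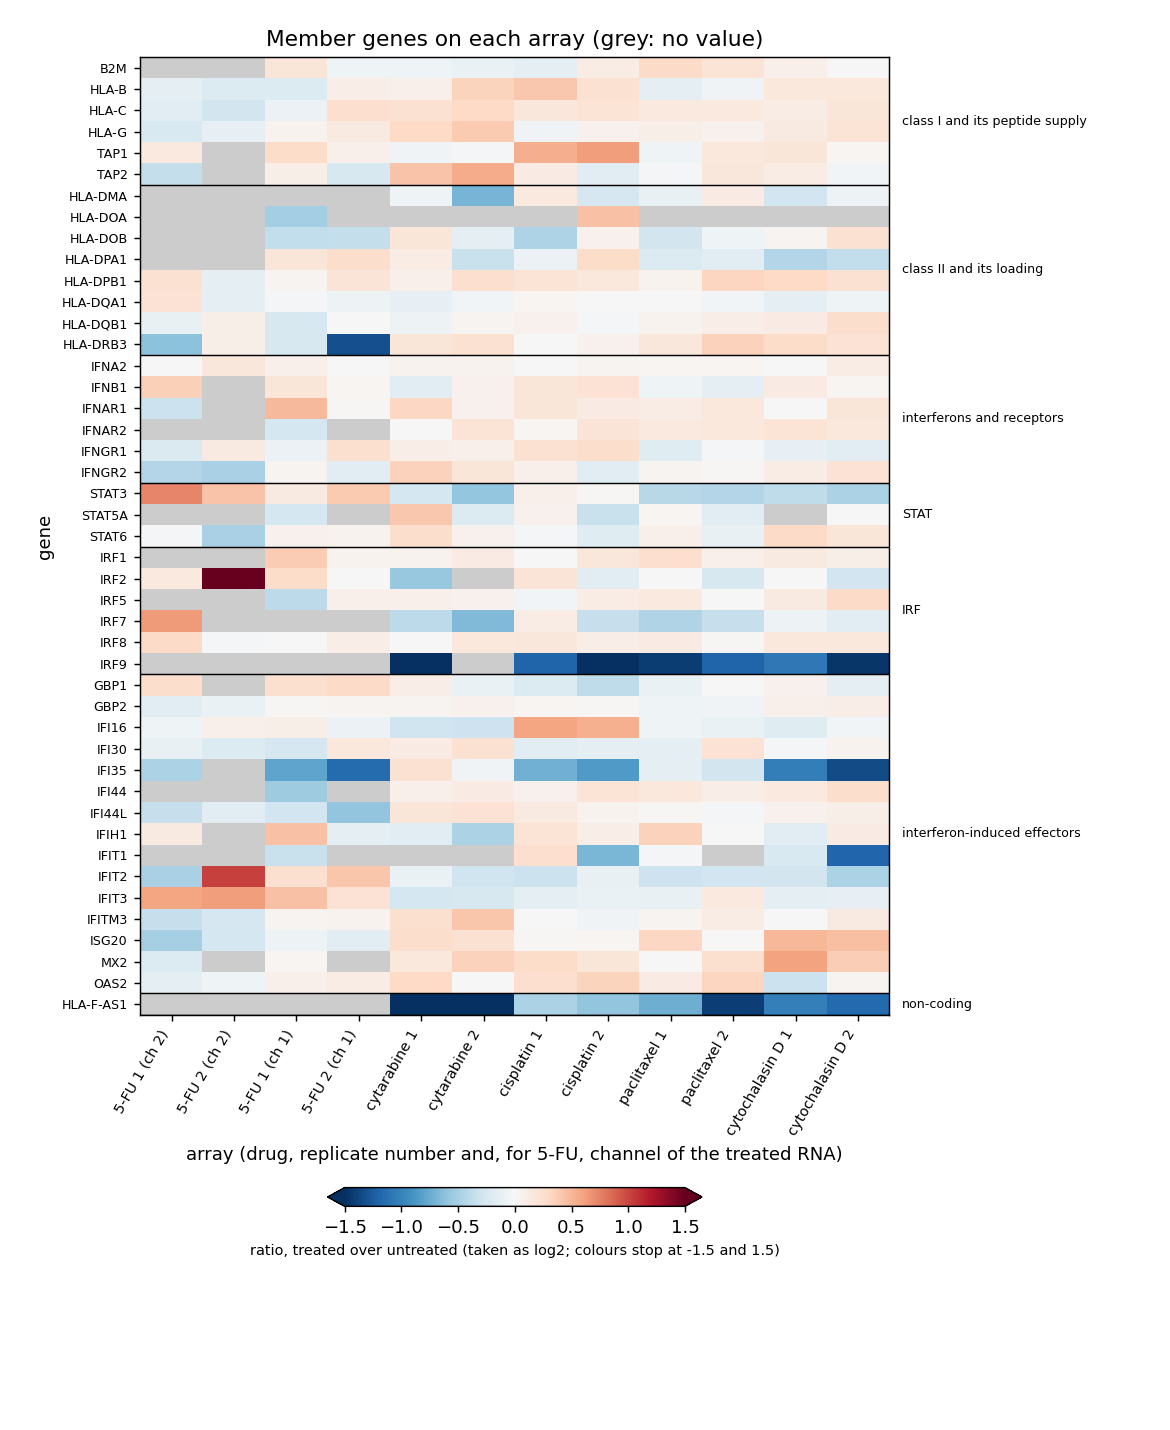
Ratio of treated over untreated RNA (colour, log2) for the 45 members with a value (rows, by role) on each of the 12 arrays (columns, by drug and replicate). Most cells are pale; IRF9 and HLA-F-AS1 are blue on every array of the other 4 drugs that reads them, and IFI16 and TAP1 are red in cisplatin.

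The interferons and their receptors changed little. Of 5 such genes tested with the channel term in the 4 single-orientation drugs, none passed in any of them, and of 3 tested in 5-FU, 1 passed. IFNA2, an interferon of the alpha family, stayed within 0.17 of 0 on all 12 arrays. IFNB1, interferon beta, had 0.36 on 1 array of 5-FU with treated RNA in channel 2, 0.18 and 0.03 on those with it in channel 1, and lay between -0.17 and 0.21 in the other drugs. No array showed a large ratio of either ligand.

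IFNGR2, the signalling chain of the interferon gamma receptor, was the receptor gene that passed with the channel term. Its ratios in 5-FU were -0.44 and -0.49 with treated RNA in channel 2 and 0.05 and -0.17 with it in channel 1. All but 1 of the 4 arrays were below 0, and the fall was larger in one orientation. IFNGR2 fell by 0.26 in 5-FU (SE 0.07, adjusted p = 0.0424, limma), but the 2 arrays with treated RNA in channel 1 alone gave -0.06 (adjusted p = 0.69). The call was also lost without 5-FU replicate 1 (-0.33, adjusted p = 0.0809) or replicate 2 (-0.20, adjusted p = 0.318), and without either replicate of paclitaxel or cytochalasin D, which left the ratio at -0.26 (adjusted p = 0.065 and 0.0624). In cytarabine IFNGR2 was higher without the term (0.26, SE 0.08, adjusted p = 0.0413), and with it the ratio was 0.06 (adjusted p = 0.636).

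IFNGR1, the ligand-binding chain of that receptor, had 0.23 and 0.26 in cisplatin, against -0.12 and -0.16 in cytochalasin D. Neither drug passed against untreated RNA in the fits on all 12 arrays, and cisplatin passed in the fit on the 8 arrays of the 4 single-orientation drugs (0.24, SE 0.06, adjusted p = 0.0325). IFNAR1, a chain of the receptor for type I interferons, had a channel effect of 0.41. Its ratios in the 4 single-orientation drugs lay between 0.00 and 0.30 as measured and between -0.31 and -0.22 once that effect was taken off, with adjusted p from 0.0959 to 0.166. The sign of IFNAR1 therefore depends on the channel term, and it passed under neither fit. IFNAR2, the other chain, had no value in channel 2 and lay between -0.26 and 0.21.

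The response to interferons passes through the STAT proteins, of which STAT3, STAT5A and STAT6 were read. STAT3, which mainly serves cytokines of the interleukin 6 family, is read by 2 probes that went opposite ways. Probe 487291 had 1.24 and 0.58 in 5-FU with treated RNA in channel 2, and 0.18 and 0.61 with it in channel 1. It had -0.82 and -1.42 in cytarabine, 0.13 and -0.21 in cisplatin, -0.86 and -1.03 in paclitaxel, and -1.08 and -1.19 in cytochalasin D. All 5-FU arrays of this probe were above 0 and all arrays of cytarabine, paclitaxel and cytochalasin D were below it.

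By itself this probe rose in 5-FU (0.65, SE 0.14, adjusted p = 0.0122) and fell in cytarabine (-0.86, adjusted p = 0.00919), paclitaxel (-0.69, adjusted p = 0.0416) and cytochalasin D (-0.87, adjusted p = 0.0159). Probe 1924844 of the same gene was above 0 on all 12 arrays, between 0.02 and 0.32. It rose in cytarabine (0.34, adjusted p = 0.0182) and cytochalasin D (0.33, adjusted p = 0.0328). The mean of both probes rose in 5-FU by 0.42 (SE 0.07, adjusted p = 0.00506), but that value joins a probe that moved to one that moved less, and for 3 drugs the probes have opposite signs. Which of them reads STAT3 was not tested.

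STAT5A lay between -0.33 and 0.40 and STAT6 between -0.49 and 0.29. Neither passed in any drug under either fit.

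**Figure D3:**
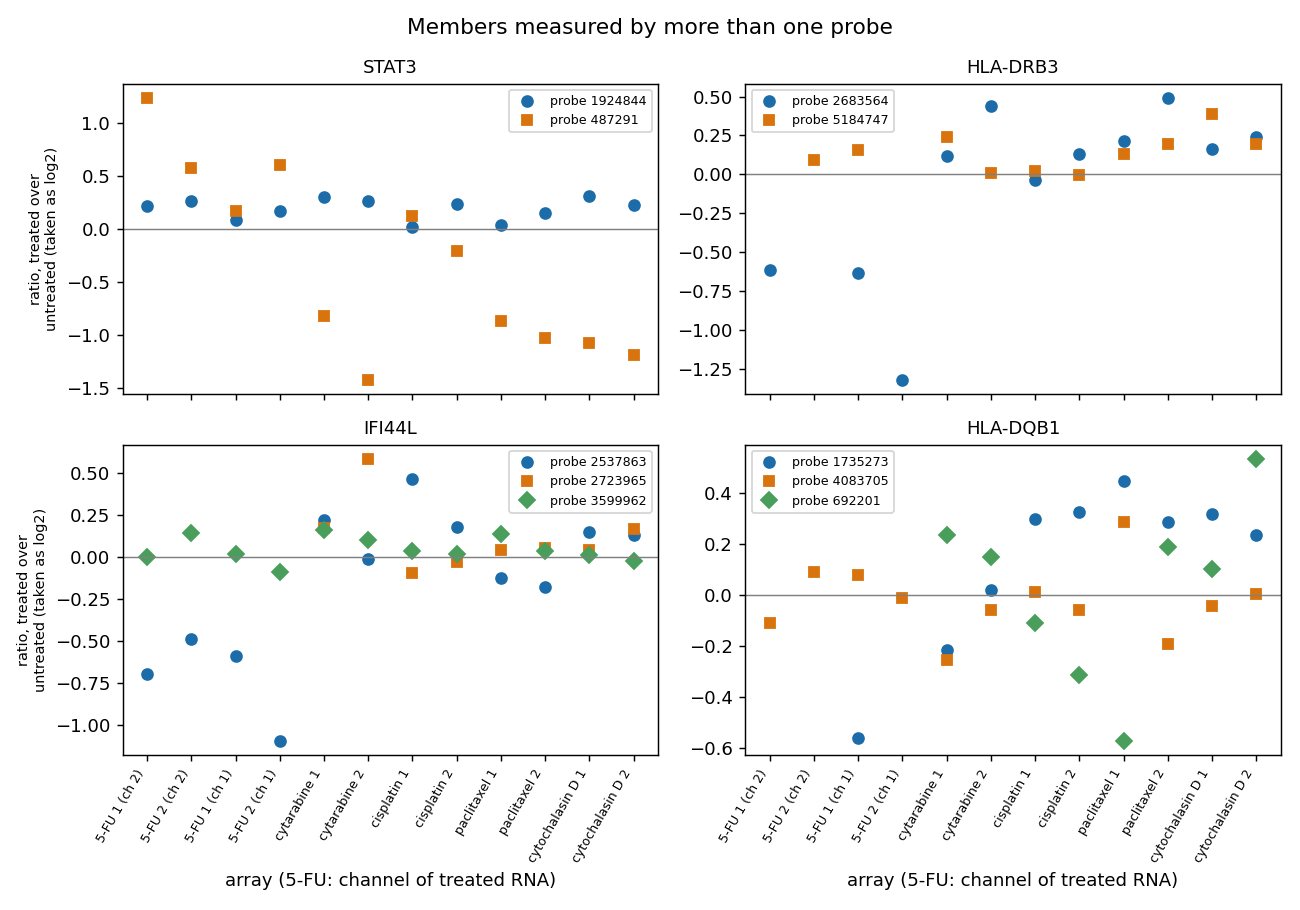
Ratio of treated over untreated RNA (log2, y axis) on each array (x axis) for the 4 members read by more than 1 probe, 1 colour per probe. The probes of STAT3 part in cytarabine, paclitaxel and cytochalasin D; for HLA-DRB3 and IFI44L a single probe is low in 5-FU.

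IRF proteins are transcription factors that switch on interferons or the genes interferons induce. Of the 6 IRF genes, at most 2 could be tested with the channel term in any drug and none passed by limma; at an unadjusted p of 0.05, 1 of 2 would pass in 5-FU and 1 of 2 in cytochalasin D. IRF9, the DNA-binding part of the complex named above and the member with the GAS at -63, had the lowest ratios of all members. It had -2.82 on the 1 cytarabine array that read it, -1.20 and -2.20 in cisplatin, -1.42 and -1.20 in paclitaxel, and -1.07 and -1.46 in cytochalasin D. All 7 values were below -1, and the lone cytarabine value was the lowest of them.

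Without the channel term, IRF9 was lower in cisplatin (-1.70, SE 0.24, adjusted p = 0.00852), paclitaxel (-1.31, adjusted p = 0.0266) and cytochalasin D (-1.27, adjusted p = 0.0284). No 5-FU array read IRF9, so its channel effect was not measured: all 7 values come from arrays with treated RNA in channel 1, and drug and channel cannot be told apart. By sign alone, 786 of 6853 features with at least 7 values were below 0 on all arrays of the single-orientation drugs that read them. Features below -1 on all such arrays were not counted. By drug, 2.07 to 4.05% of features had a mean ratio beyond 1 in either direction.

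IRF7, which drives the later rounds of interferon production, had -0.39 and -0.66 in cytarabine, 0.11 and -0.34 in cisplatin, -0.45 and -0.34 in paclitaxel, and -0.08 and -0.16 in cytochalasin D. It was read on 1 array of 5-FU, at 0.64. IRF7 was lower in cytarabine without the channel term (-0.52, SE 0.12, adjusted p = 0.0198) and could not be tested with it. IRF1, which serves the response to interferon gamma, lay between -0.01 and 0.38 on 10 arrays and passed in no drug.

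IRF2, an antagonist of IRF1, had 0.15 and 1.86 in 5-FU with treated RNA in channel 2 and 0.28 and 0.01 with it in channel 1. Its mean of 0.57 (SE 0.17, adjusted p = 0.07) rested on the second of these arrays. IRF5 and IRF8 lay between -0.39 and 0.29.

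Of the 16 interferon-induced effector genes, IFI16, IFI35, IFI44L, IFIT3 and ISG20 passed with the channel term. IFI16, a sensor of DNA in the nucleus, rose in cisplatin and fell in cytarabine. Its ratios were 0.59 and 0.54 in cisplatin and -0.30 and -0.31 in cytarabine. They were -0.06 and 0.08 in 5-FU with treated RNA in channel 2, 0.09 and -0.09 with it in channel 1, -0.07 and -0.10 in paclitaxel, and -0.18 and -0.04 in cytochalasin D.

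Both cisplatin arrays stood above, and both cytarabine arrays below, all others. IFI16 rose by 0.57 in cisplatin (SE 0.06, adjusted p = 0.00115) and fell by 0.30 in cytarabine (SE 0.06, adjusted p = 0.0129). Its channel effect was -0.00, so both fits gave nearly the same ratios. The fall in cytarabine was lost without 5-FU replicate 1 (-0.22, adjusted p = 0.0722), cytarabine replicate 1 (-0.31, adjusted p = 0.0556) or cytarabine replicate 2 (-0.30, adjusted p = 0.0687).

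IFI35, an interferon-induced leucine zipper protein and the member with the GAS at -22, fell in cytochalasin D and cisplatin. It had -1.03 and -1.34 in cytochalasin D and -0.72 and -0.85 in cisplatin. In 5-FU it had -0.48 on 1 array with treated RNA in channel 2 and -0.79 and -1.15 with it in channel 1. Paclitaxel gave -0.14 and -0.27, and cytarabine 0.23 and -0.06, the 1 drug in which the arrays lay on both sides of 0.

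With the channel term IFI35 fell by 1.03 in cytochalasin D (SE 0.14, adjusted p = 0.0058) and by 0.63 in cisplatin (SE 0.14, adjusted p = 0.0221). The 5-FU ratio could be fitted only without the term and was -0.89 (SE 0.13, adjusted p = 0.00294). The call in cytochalasin D was kept under all 18 alternatives in which it could be fitted. The call in cisplatin was lost without cisplatin replicate 1 (-0.70, adjusted p = 0.0682) or replicate 2 (-0.57, adjusted p = 0.102).

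The IFIT genes encode antiviral proteins that bind foreign RNA. IFIT3, with an ISRE at -156 and at -122, had 0.59 and 0.63 in 5-FU with treated RNA in channel 2 and 0.44 and 0.21 with it in channel 1. It had -0.27 and -0.23 in cytarabine, -0.15 and -0.10 in cisplatin, -0.11 and 0.15 in paclitaxel, and -0.14 and -0.12 in cytochalasin D. All 4 arrays of 5-FU were above 0 and above all arrays of the other drugs. IFIT3 rose by 0.47 in 5-FU (SE 0.07, adjusted p = 0.00153).

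IFIT2 did not follow with a value that passed on all 12 arrays: its 5-FU arrays ran from -0.48 to 1.03, with a mean of 0.30 (SE 0.17, adjusted p = 0.305), and in the other drugs it was below 0 on all 8 arrays, between -0.48 and -0.10. Of these, cytochalasin D passed when the 8 arrays were fitted alone (-0.37, SE 0.08, adjusted p = 0.0353). IFIT1 was read on 6 arrays, at -0.34 in 5-FU, 0.25 and -0.68 in cisplatin, -0.03 in paclitaxel, and -0.23 and -1.19 in cytochalasin D. Replicates of IFIT1 differed by more than its mean in either drug, and it did not pass.

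**Figure D4:**
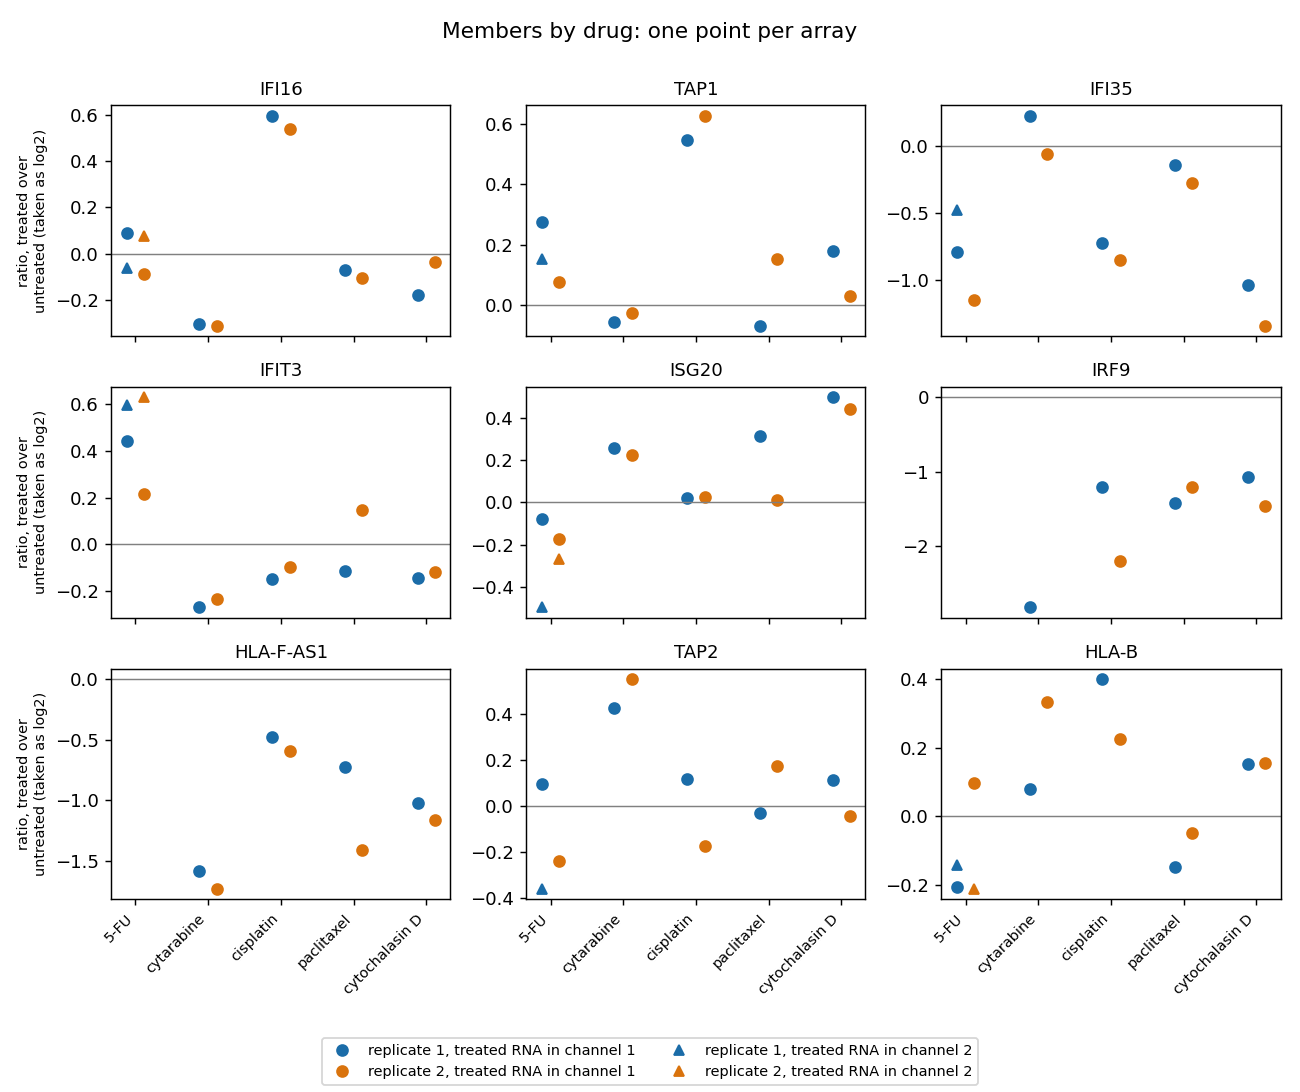
Ratio of treated over untreated RNA (log2, y axis) by drug (x axis) for 9 members, 1 point per array; colours are replicates, circles have treated RNA in channel 1 and triangles in channel 2. IFI16 and TAP1 stand above 0.5 in cisplatin, IFIT3 is above 0 on all 4 arrays of 5-FU, and IRF9 and HLA-F-AS1 have no 5-FU point and no point above 0.

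IFI44L, an interferon-induced gene that dampens the antiviral response, fell in 5-FU and rose in cytarabine as the mean of its probes. Its gene means were -0.35 and -0.17 in 5-FU with treated RNA in channel 2 and -0.29 and -0.59 with it in channel 1, against 0.18 and 0.22 in cytarabine. All 4 arrays of 5-FU were below 0 and below those of the other drugs. The gene fell by 0.35 in 5-FU (SE 0.05, adjusted p = 0.00136) and rose by 0.29 in cytarabine (SE 0.06, adjusted p = 0.0115), a call lost without 5-FU replicate 2 (0.17, adjusted p = 0.129) or cytarabine replicate 2 (0.27, adjusted p = 0.072).

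Its probes did not move together. Probe 2537863 had -0.70 and -0.49 in 5-FU with treated RNA in channel 2 and -0.59 and -1.09 with it in channel 1, and by itself fell by 0.72 (SE 0.08, adjusted p = 0.000506). In cisplatin the same probe had 0.46 and 0.18 and rose (0.45, adjusted p = 0.0209). Probe 3599962 had 0.02 in the same test (adjusted p = 0.886), with no array beyond 0.14 of 0 in 5-FU. The third probe, 2723965, had no 5-FU value. In cytarabine no single probe passed with the term (0.23, adjusted p = 0.135 for 2537863 and 0.18, adjusted p = 0.0563 for 3599962), and 2723965, whose channel effect was not measured, was higher without it (0.38, adjusted p = 0.0361). The fall of IFI44L in 5-FU is thus that of 1 probe.

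ISG20, an interferon-induced RNA exonuclease, had -0.50 and -0.27 in 5-FU with treated RNA in channel 2 and -0.08 and -0.17 with it in channel 1, against 0.50 and 0.45 in cytochalasin D. All 4 arrays of 5-FU were below 0 and all others above it. ISG20 fell by 0.25 in 5-FU (SE 0.07, adjusted p = 0.0441) and rose by 0.34 in cytochalasin D (SE 0.09, adjusted p = 0.038). Both calls lie close to the threshold: leaving out either replicate of 5-FU, cytarabine, cisplatin or cytochalasin D in turn ended the call in 5-FU, with adjusted p from 0.0626 to 0.258 and ratios from -0.29 to -0.22. The call in cytochalasin D was lost without 5-FU replicate 2 or either replicate of cytarabine, cisplatin or cytochalasin D, with adjusted p from 0.0514 to 0.197 and ratios from 0.26 to 0.37.

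Other effectors passed only without the channel term. MX2, an antiviral GTPase, had 0.60 and 0.37 in cytochalasin D (0.49, adjusted p = 0.0213). IFITM3, which blocks the entry of viruses, had 0.24 and 0.42 in cytarabine (0.33, adjusted p = 0.0094), but -0.35 and -0.25 against 0.04 and 0.06 in the opposite orientations of 5-FU, a channel effect of 0.17. GBP1, a GTPase that attacks vacuoles of pathogens, had -0.20 and -0.38 in cisplatin (-0.29, adjusted p = 0.0463), and IFIT3 had -0.25 in cytarabine (adjusted p = 0.0366). GBP2, IFI30, IFI44, IFIH1 and OAS2 passed in no drug under either fit.

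The 5 class I genes tested in cisplatin with the channel term had a median ratio of 0.04. Among them was TAP1, a subunit of the transporter that carries peptides to class I molecules, with the overlapping ISREs shown above. The ratios of TAP1 were 0.55 and 0.63 in cisplatin. They were 0.15 in 5-FU with treated RNA in channel 2, 0.28 and 0.08 with it in channel 1, -0.06 and -0.03 in cytarabine, -0.07 and 0.15 in paclitaxel, and 0.18 and 0.03 in cytochalasin D. Both cisplatin arrays stood above all others. TAP1 rose by 0.52 in cisplatin (SE 0.10, adjusted p = 0.0137), a call lost without cisplatin replicate 1 (0.56, adjusted p = 0.0503) or replicate 2 (0.48, adjusted p = 0.0689).

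TAP2, the other subunit of the same transporter, did not share that pattern. It had 0.12 and -0.17 in cisplatin and 0.43 and 0.55 in cytarabine. The channel effect of TAP2 was 0.23, so the cytarabine ratio was 0.49 without the channel term (SE 0.09, adjusted p = 0.00699) and 0.26 with it (SE 0.13, adjusted p = 0.173). In cisplatin it was -0.25 with the term (adjusted p = 0.199).

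The heavy chains and B2M gave smaller ratios. HLA-B had 0.40 and 0.23 in cisplatin and passed there without the channel term (0.31, SE 0.08, adjusted p = 0.0353) but not with it (0.25, SE 0.09, adjusted p = 0.0883). HLA-C lay between 0.11 and 0.30 on all 8 arrays of the single-orientation drugs. In 5-FU it had -0.17 and -0.27 with treated RNA in channel 2, against -0.09 and 0.25 in channel 1. It passed in cytarabine without the term (0.26, adjusted p = 0.0135), and with it the ratio was 0.11 (adjusted p = 0.224).

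HLA-G, a class I molecule that inhibits immune cells, had 0.30 and 0.39 in cytarabine and passed there without the term (0.34, adjusted p = 0.00534). B2M, the invariant light chain, lay between -0.14 and 0.28 on 10 arrays and passed in no drug. With the channel term, of the class I genes TAP1 passed in cisplatin and none in the other drugs. HLA heavy chains are alike in sequence, so a cDNA probe of one can take up RNA of another, which was not tested.

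Of the class II genes, HLA-DRB3 alone passed, and its value mixes probes. Its 2 probes were read together on only 1 of the 4 arrays of 5-FU. Probe 2683564 had -0.62 in 5-FU with treated RNA in channel 2 and -0.63 and -1.32 with it in channel 1. Probe 5184747 had 0.09 on the other array with treated RNA in channel 2 and 0.16 on one with it in channel 1. In replicate 2 of 5-FU no probe was read in both orientations.

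The mean of the probes gave a fall of 0.52 in 5-FU (SE 0.07, adjusted p = 0.000728) and rises of 0.46 in cytarabine (adjusted p = 0.0058), 0.29 in cisplatin (adjusted p = 0.041), 0.52 in paclitaxel (adjusted p = 0.00874) and 0.50 in cytochalasin D (adjusted p = 0.00767). Its channel effect of -0.26 is a difference between probes in part. As measured, the gene's ratios in these 4 drugs lay between -0.01 and 0.34. None passed without the channel term on all 12 arrays; fitted on the 8 arrays of the 4 drugs alone, paclitaxel passed (0.26, adjusted p = 0.0484). Probe 2683564 alone, with the term, gave 0.29, 0.05, 0.36 and 0.21 in these drugs and passed in none (adjusted p from 0.156 to 0.817). Without 5-FU replicate 2 the gene means were 0.01, -0.16, 0.07 and 0.06, with no call. In 5-FU the same probe was lower without the term (-0.97, SE 0.16, adjusted p = 0.00454), and the other probe had 0.13 (adjusted p = 0.328). HLA-DRB genes are close copies of each other, so which of them these probes read is uncertain.

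The rest of class II passed in no drug under either fit as gene means. HLA-DQB1, a chain of HLA-DQ, is read by 3 probes that disagree: without the term, probe 1735273 was higher in cisplatin (0.31, adjusted p = 0.0405) and paclitaxel (0.37, adjusted p = 0.0329), where probe 692201 had -0.21 and -0.19 and probe 4083705 had -0.02 and 0.05. HLA-DPA1 and HLA-DPB1, the chains of HLA-DP, had -0.43 and -0.37 (HLA-DPA1) and 0.30 and 0.23 (HLA-DPB1) in cytochalasin D, on opposite sides of 0. HLA-DQA1 lay between -0.15 and 0.22, and HLA-DOA was read on 2 arrays. HLA-DMA, a chaperone of peptide loading, had -0.06 and -0.70 in cytarabine, a spread wider than its ratio in any drug.

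HLA-F-AS1, a long non-coding RNA gene that lies antisense to HLA-F, had -1.58 and -1.73 in cytarabine, -0.48 and -0.60 in cisplatin, -0.73 and -1.41 in paclitaxel, and -1.02 and -1.16 in cytochalasin D. All 8 values were below 0, and no 5-FU array read it. Without the channel term it was lower in cytarabine (-1.66, SE 0.15, adjusted p = 0.000554), paclitaxel (-1.07, adjusted p = 0.00742) and cytochalasin D (-1.09, adjusted p = 0.0064). As with IRF9, drug and channel cannot be told apart. The strand that its double-stranded cDNA probe reads is not given in the sources used here.

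Drugs of 1 orientation can be compared with each other without the channel term, since a constant effect of the channel cancels. A test of any difference among cytarabine, cisplatin, paclitaxel and cytochalasin D passed for 3 of 40 members, where 11.3% of all features passed: IFI16 (adjusted p = 0.00918), IFI35 (adjusted p = 0.0138) and TAP1 (adjusted p = 0.0347; limma's moderated F test). Cisplatin set 2 of the 3 apart, and without either cisplatin replicate none passed (8 of 40 at an unadjusted p of 0.05 without replicate 1, 10 of 40 without replicate 2). The 6 pairs were then compared, with p adjusted over all features within a pair and not over the pairs.

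IFI16 was higher in cisplatin than in each of the other 3 drugs. The difference was -0.87 for cytarabine minus cisplatin (SE 0.08, adjusted p = 0.00288), 0.65 for cisplatin minus paclitaxel (adjusted p = 0.0111) and 0.67 for cisplatin minus cytochalasin D (adjusted p = 0.0076). The first was kept without any single array. Cisplatin minus paclitaxel was lost without any array of those 2 drugs (0.62 to 0.68, adjusted p from 0.0531 to 0.0634), and cisplatin minus cytochalasin D without replicate 1 of cisplatin (0.64, adjusted p = 0.0512) or of cytochalasin D (0.60, adjusted p = 0.0559).

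TAP1 was likewise higher in cisplatin than in each of the other 3 drugs, with -0.63 for cytarabine minus cisplatin (SE 0.10, adjusted p = 0.0115), 0.54 for cisplatin minus paclitaxel (adjusted p = 0.0376) and 0.48 for cisplatin minus cytochalasin D (adjusted p = 0.0441). Leaving out cisplatin replicate 2 ended the first of these (-0.59, adjusted p = 0.0553), and leaving out any replicate of at least 3 of the 4 drugs ended the other two, with differences from 0.43 to 0.65 (adjusted p up to 0.147) and from 0.41 to 0.56 (adjusted p up to 0.194). IFI35 was higher in cytarabine, by 0.87 over cisplatin (SE 0.14, adjusted p = 0.0115) and by 1.27 over cytochalasin D (SE 0.14, adjusted p = 0.0268). The first was lost without cisplatin replicate 2 (0.81, adjusted p = 0.0574) and the second without any single replicate of the 4 drugs (1.12 to 1.42, adjusted p from 0.0532 to 0.123).

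By pair, 8 of 41 members passed for cytarabine minus cisplatin, where 20.8% of all features passed. HLA-F-AS1 (-1.12, adjusted p = 0.016), TAP2 (0.52, adjusted p = 0.0385), IFITM3 (0.36, adjusted p = 0.0417), HLA-G (0.34, adjusted p = 0.034) and STAT3 (-0.46, adjusted p = 0.0354) were among them, though none of these 5 passed the test over the 4 drugs, and each was lost without either cisplatin replicate (adjusted p from 0.0527 to 0.145). For cisplatin minus cytochalasin D 3 of 43 passed (6.98% of all features), IFNGR1 (0.39, adjusted p = 0.0439) being the third; it was lost without either replicate of cisplatin, cytarabine or cytochalasin D (0.37 to 0.40, adjusted p from 0.0667 to 0.183). For cisplatin minus paclitaxel 2 of 43 passed (4.99%), and for cytarabine minus cytochalasin D 1 of 40 (1.89%). Cytarabine minus paclitaxel gave 0 of 41 (0% of all features; 10 at an unadjusted p of 0.05) and paclitaxel minus cytochalasin D 0 of 42 (0.0729%; 3 at an unadjusted p of 0.05), by limma.

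5-FU was set against the mean of the other 4 drugs with the channel term. Here 5 of 22 members passed, 2 higher and 3 lower, where 15.9% of all features passed, 6.11% higher and 9.79% lower. IFIT3 (0.45, SE 0.09, adjusted p = 0.0103) and STAT3 (0.57, SE 0.10, adjusted p = 0.00555) were higher in 5-FU. IFI44L (-0.53, SE 0.06, adjusted p = 0.000906), ISG20 (-0.35, SE 0.09, adjusted p = 0.0392) and HLA-DRB3 (-0.96, SE 0.09, adjusted p = 0.000208) were lower, the last with the mixed probes described above.

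The difference of IFIT3 was lost without 5-FU replicate 1 (0.34, adjusted p = 0.148) and that of STAT3 without 5-FU replicate 2 (0.44, adjusted p = 0.1). That of ISG20 was lost without any replicate of 5-FU, cytarabine, cisplatin or cytochalasin D (-0.40 to -0.30, adjusted p from 0.0588 to 0.224). By probe, STAT3 differed at 487291 (1.20, SE 0.18, adjusted p = 0.00278) and not at 1924844 (-0.07, adjusted p = 0.675). Likewise IFI44L differed at 2537863 (-0.94, adjusted p = 0.000814) and not at 3599962 (-0.10, adjusted p = 0.392). 5-FU arrays also differ from the rest in their missing values, given above; their part in these differences was not tested.

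Other genes of the pathway were looked up in lists. Of 18 genes of receptor signalling and its brakes, 10 were on the array. SOCS3, a protein that switches off JAK and STAT signalling, had -0.74 and -0.75 in 5-FU with treated RNA in channel 2 and -0.54 and -0.73 with it in channel 1. It had 0.43 and 0.41 in cisplatin, 0.35 and 0.40 in cytarabine, and -0.19 and -0.27 in cytochalasin D. SOCS3 fell by 0.69 in 5-FU (SE 0.06, adjusted p = 7.28e-05) and by 0.29 in cytochalasin D (adjusted p = 0.0323), and rose by 0.37 in cisplatin (adjusted p = 0.0102) and by 0.32 in cytarabine (adjusted p = 0.0154).

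PTPN2, a phosphatase that acts on JAK and STAT proteins, fell in the 4 single-orientation drugs with the channel term, by 0.27 in cytarabine and in cisplatin, 0.31 in paclitaxel and 0.34 in cytochalasin D (adjusted p from 0.0259 to 0.0421). Without the term it passed in none. PTPN1 fell by 0.64 and PTPN11 by 0.23 in cytarabine, and PTPN6 rose by 0.64 in cytochalasin D.

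Of 18 genes that sense nucleic acids, 9 were on the array and none of the 6 or 7 tested passed in any drug by limma with the channel term. By drug, 9.26 to 25.2% of all features passed in that fit. At an unadjusted p of 0.05, 1 of 7 would pass in cisplatin and 1 of 7 in cytochalasin D. Without the term TRIM25 passed in cytarabine (0.34) and TRAF3 in cisplatin (-0.86).

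Of 40 other interferon-induced genes, 20 were on the array and 10 to 12 could be tested, of which at most 1 passed in any drug with the channel term. By drug, 9.26 to 25.2% of all features passed in that fit. LGALS3BP, a secreted glycoprotein, fell by 0.23 in 5-FU (adjusted p = 0.0286, limma) and by 0.29 in cisplatin (adjusted p = 0.0276, limma). Its 5-FU arrays read -0.42 and -0.47 with treated RNA in channel 2, and 0.11 and -0.15 with it in channel 1. The cisplatin arrays read -0.10 and -0.05, and without the term LGALS3BP did not pass there. TRIM21, an antibody receptor inside the cell, rose by 0.84 in cytarabine (adjusted p = 0.0466). CXCL9 and CXCL10, chemokines that draw T cells, also passed: CXCL9 fell by 0.81 in paclitaxel (adjusted p = 0.0277), and CXCL10 fell by 1.06 in cytochalasin D (adjusted p = 0.019). In cytarabine without the term 25.9% of all features passed in either direction, and the share higher alone is not given here. Of the listed genes 5 of 14 were higher in that fit and none lower. They were TRIM21 (0.82), IDO1, an enzyme that breaks down tryptophan (0.35), and ADAR, which edits double-stranded RNA (0.29). The others were UBE2L6, an enzyme of ISG15 conjugation (0.28), and PSMB10, a subunit of the immunoproteasome (0.19). Their adjusted p ran from 0.0117 to 0.0434 (limma). IDO1 was also higher in paclitaxel (0.46, adjusted p = 0.0325), and in the other drugs the count without the term was at most 1 in each direction.

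Of 28 genes of antigen processing and loading, 9 were on the array. With the channel term, by limma, 1 of 5 passed in 5-FU (16.8% of all features) and none of 5 or 6 in the other drugs (9.26 to 25.2%). In those drugs, at an unadjusted p of 0.05, 1 of 5 would pass in paclitaxel and none in the other 3. PDIA3, a chaperone of the peptide-loading complex, fell by 0.32 in 5-FU (SE 0.08, adjusted p = 0.0249), and it was below 0 on all 12 arrays. CD1D, which presents lipids, had -1.79 and -1.57 in cytarabine, -0.90 and -1.47 in cisplatin, -1.14 and -1.36 in paclitaxel, and -1.12 and -1.26 in cytochalasin D. Like IRF9 and HLA-F-AS1 it had no 5-FU value, so its channel effect was not measured. Without the term the genes that passed were all lower. They were 1 of 6 in 5-FU (19.1% of all features in either direction), 2 of 7 in cytarabine (25.9%) and 2 of 9 in cisplatin (15.8%). In paclitaxel 3 of 8 passed (9.58%) and in cytochalasin D 2 of 9 (11%). The share of all features lower alone is not given here. The genes were CD1D in the 4 single-orientation drugs, and PDIA3 in 5-FU (-0.32), cytarabine (-0.27) and cisplatin (-0.32). CALR, a chaperone of class I assembly, passed in paclitaxel (-0.31). CD74, the invariant chain of class II, passed in paclitaxel (-0.59) and cytochalasin D (-0.47).

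Markers of other cell types were read as ratios only. Of the leukocyte markers 3 of 6 were on the array. With the channel term, by limma, CD14 rose by 0.55 in 5-FU (adjusted p = 0.0201) and by 0.68 in cisplatin (adjusted p = 0.0204). Of the members that passed, 2 were higher and 4 lower in 5-FU, and 3 were higher and 1 lower in cisplatin. Without the term CD14 passed in 5-FU and not in cisplatin. CD68 had 0.12 and 0.62 on the 5-FU arrays that read it. In cisplatin CD68 had 0.09 and -0.02 and passed under neither fit. PTPRC had -0.17 on 1 cisplatin array. The part of CD14 in the members' results was not tested. The epithelial marker KRT8 fell by 0.30 in cytochalasin D (adjusted p = 0.0207, limma). In that drug KRT18 had -0.20 and -0.42, EPCAM -0.03 and 0.31, and CDH1 0.12 and -0.20. No fibroblast marker could be tested with the channel term. Without it the fibroblast marker LUM had 0.58 and 0.41 in cytochalasin D (0.50, adjusted p = 0.00615, limma). In that fit MX2 and ISG20 were also higher in cytochalasin D, and IFI35, IRF9, STAT3 and HLA-F-AS1 were lower. COL1A1, the other fibroblast marker read, had 0.02 and -0.28 there. The epithelial marker KRT18 was lower in cisplatin without the term (-0.49, adjusted p = 0.0256, limma). In the same fit HLA-B, IFI16 and TAP1 were higher in cisplatin, and GBP1, IFI35 and IRF9 were lower. In cisplatin KRT8 had 0.04 and 0.05, EPCAM 0.11 and -0.19, and CDH1 0.52 and -0.04. The part of these markers in the members' results was not tested.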

How the data were processed

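The 12 two-channel arrays compare treated with untreated H460 RNA; drug, dose, time, replicate and channel come from the sample labels. Deposited by the authors are log ratios for each probe, read here as log2. Their log base, numerator, normalization and spot filter are not stated in the sources used here, and neither is spot brightness, so signal over background is not known. One sign was set for all arrays: that under which MDM2, CDKN1A and a list of p53 targets (by its median) are positive in 5-FU, as 3 of 3 were.

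Of 8170 probes, 5930 matched 1 gene in the platform annotation, 79 several and 2161 none. Values of a gene's probes were averaged on each array, and unnamed probes stayed separate, giving 7739 features, centred per array on the median. Both orientations of a 5-FU replicate were averaged after turning, and their difference measured the channel effect. The fit meets that observation exactly, so standard errors of the single-orientation drugs rest on an assumed error and may be too small. A gene was tested where all replicates of the drug, and the channel effect, had values. The fits used limma 3.58.1 (R 4.3.3), with adjusted p under 0.05 (Benjamini-Hochberg) over all features, and were tested on data simulated with an assumed spread. Of 67 changes of 0.5, the fit found 45 in 5-FU and 35 in cisplatin, and the test among 4 drugs found 7. Of 67 changes of 1 they found 66, 65 and 59. Small changes can therefore be missed. Because each ratio is set against 0, the variation of untreated cultures has no term of its own.

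The members and the gene lists were chosen with earlier results of these data known. Named with values are members called in a comparison, the 3 of greatest mean ratio per drug, and STAT3, IRF1, IRF7, IRF9, IFIT1, B2M, TAP1, HLA-B and HLA-C; list genes are named where called, at most 4 a list and drug. Other members, TRIM25, TRAF3 and CD1D were named after their values were seen. Alternatives were no channel term, every array as its own observation, a replicate block, no centring, scaled arrays, features with all values, single probes, robust moderation, a minimum ratio of 1, each drug's arrays alone, 5-FU arrays of 1 orientation, and leaving out each replicate. Promoter sequences are RefSeq's, build GRCh38.p14.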

Additional observations from a re-analysis of the deposited data

Results flagged for a closer look

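The results below are listed because a test of a difference between drugs passed. The test among 4 drugs passed for 3 of 40 members and for 11.3% of all features. That of 5-FU against the others passed for 5 of 22 members and for 15.9% of all features. The first depends on both cisplatin replicates, as described above. IFI16 differed among cytarabine, cisplatin, paclitaxel and cytochalasin D, and its largest difference was -0.87 for cytarabine minus cisplatin. IFI35 differed among the same drugs, at most by 1.27 for cytarabine minus cytochalasin D. TAP1 differed too, at most by -0.63 for cytarabine minus cisplatin. 5-FU minus the mean of the other 4 drugs was 0.45 for IFIT3, 0.57 for STAT3, -0.35 for ISG20, -0.53 for IFI44L and -0.96 for HLA-DRB3. For STAT3, IFI44L and HLA-DRB3 the value is a mean over probes that disagree.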

How the results depend on the processing

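The 36 results of single members called against untreated RNA or between drugs were refitted 632 times; 430 refits kept the call, 201 lost it, and 1 turned the direction: HLA-DRB3 in cisplatin, whose values without 1 replicate ran from -0.16 (without 5-FU replicate 2) to 0.73 (without 5-FU replicate 1). For members read by more than 1 probe, fits on single probes are left out of these refits, and some of those turned the direction. Probe 3599962 of IFI44L had 0.02 in 5-FU, against -0.35 for the gene. Probe 1924844 of STAT3 had -0.07 for 5-FU against the others, where the gene had 0.57. For cytarabine minus cisplatin it had 0.15, where the gene had -0.46. Counts of members called were 6 in 5-FU, 3 in cytarabine, 4 in cisplatin, 1 in paclitaxel, 3 in cytochalasin D, 3 among the 4 drugs and 5 for 5-FU against the mean of the others. No channel term gave 11 in cytarabine, 3 in paclitaxel, 6 in cytochalasin D and 8 for 5-FU against the others. Every array as its own observation gave 1 in cytarabine, 2 in cisplatin, 1 in cytochalasin D and 0 of 31 in paclitaxel (limma; 1 at an unadjusted p of 0.05). Scaled arrays gave 2 in cisplatin and 2 in paclitaxel, and features with all 12 values 2 in cisplatin. The arrays of a drug alone gave 4 in paclitaxel and 0 of 35 in 5-FU (limma; 10 at an unadjusted p of 0.05). A minimum ratio of 1 left 1 in cytochalasin D and 1 among the 4 drugs, both IFI35, and 0 in 5-FU, cytarabine, cisplatin, paclitaxel and 5-FU against the others.

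Leaving out 1 replicate gave 4 to 6 in 5-FU, 1 to 3 in cytarabine, 1 to 4 in cisplatin, 0 to 2 in paclitaxel, 1 to 4 in cytochalasin D, 0 to 4 among the 4 drugs and 3 to 5 for 5-FU against the others. Cisplatin had 1 without either of its replicates, paclitaxel 0 without its replicate 2 (limma; 2 at an unadjusted p of 0.05), and the test among the 4 drugs 0 without either cisplatin replicate (8 and 10). Where 1 array is left, it is assumed to vary like the others. Replicate numbers did not pair the samples: deviations of same-numbered arrays correlated at -0.061 to 0.090 between drugs, and a replicate block left no count outside 1.5 times its value. Only 5-FU arrays measure the channel effect, which is unknown for genes with no value in both orientations; with 2 replicates per drug and no intensities, small ratios cannot be told from 0.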
